A study of Mus musculus with 8 samples.

Results

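The miRNAs described here are the miR-34b/34c and miR-449 families of multiciliated cells, measured in the mouse amygdala. They were taken as every capture probe named for mmu-miR-34b, mmu-miR-34c, mmu-miR-449a, mmu-miR-449b or mmu-miR-449c (mmu for mouse), on any arm, which gave 8 of the 1034 mouse miRNA probes on the array. An asterisk in a probe name marks the minor arm. Fear conditioned animals were adult male C57/Bl6J mice that received 5 pairings of a 6 kHz tone with a 0.6 mA shock and were killed 30 min later (n = 4). Home cage animals were adult males of the same background that were left in their cages (n = 4). Both groups gave bilateral amygdala tissue from 1 mm punches, and each animal was measured on its own array against a pool of RNA from the animals. The home cage mice received neither tone nor shock, so learning and exposure to these stimuli cannot be told apart.

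The family of miR-34 and miR-449 is made from separate loci whose main arms share a seed, the bases near the 5′ end that pair with target mRNAs. In mice, miR-34b, miR-34c and miR-449 are abundant in cells with many motile cilia and are needed together for those cilia to form, partly by lowering the centriolar protein Cp110. In the brain such cells line the ventricles as ependyma, and the epithelium of the choroid plexus, which secretes cerebrospinal fluid, carries cilia too. miR-34a, the remaining family member, is transcribed alone and is found in many cell types. It is induced by p53, to which miR-34b and miR-34c are linked too.

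The mature sequences below show which members share a seed (bases 2 to 8, in capitals). They are RefSeq entries on GRCm38.p6, which were found for 6 of the 8 probes. The miR-34c and miR-449b probes are named only, so their match to the others was not counted.
miR-34b-5p: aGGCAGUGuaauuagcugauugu
miR-449a: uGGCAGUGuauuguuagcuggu
miR-449c: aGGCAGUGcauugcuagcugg
miR-34a (for comparison): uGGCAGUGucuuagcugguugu
miR-34b-3p: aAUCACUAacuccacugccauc
miR-34c*: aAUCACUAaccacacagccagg
miR-449a*: cAGCUAACaugcgacugcucuc
miR-204 (for comparison): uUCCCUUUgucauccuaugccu
The first 4 carry the seed GGCAGUG, and miR-34b-3p and miR-34c* carry AUCACUA. Counted from their first bases, miR-34b-3p and miR-34c* match at 17 of 22 positions, miR-449a and miR-449c at 18 of 21, and miR-34b-5p and miR-34a at 11 of 22. miR-204, whose values are compared with theirs further on, has another seed and matches miR-34b-5p at 3 of 22.

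Both arms of miR-34b come from one precursor, shown here with the 5p and then the 3p arm in capitals because the arms behaved differently across the arrays.
Mir34b hairpin: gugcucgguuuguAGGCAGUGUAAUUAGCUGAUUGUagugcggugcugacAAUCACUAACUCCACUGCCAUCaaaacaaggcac
The hairpin lies at chr9:51103562-51103645 on the minus strand, with miR-34b-5p at chr9:51103610-51103632 and miR-34b-3p at chr9:51103574-51103595. miR-34c* lies at chr9:51103044-51103065 on the same strand. In the RefSeq gene table both Mir34b and Mir34c lie within the spans of Hoatz, a gene of motile cilia and flagella, and Btg4, a gene of mRNA decay in oocytes. miR-449a lies at chr13:113037549-113037570 and miR-449c at chr13:113036008-113036028, on the plus strand, and all 3 miR-449 genes lie within Cdc20b, whose product takes part in making the centrioles of multiciliated cells.

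Each miRNA has a normalised Hy3 signal, the log2 brightness of the sample's own dye, and a ratio of that sample to the pool, which the authors deposited and which is taken as log2. A probe was called above background on an array when its mean exceeded the 95th percentile of that array's negative control spots. Between 565 and 657 mouse probes were above it on an array, and 480 were above it on all 8. With 4 arrays a group, precision is set by the number of arrays. Home cage array 1 had 508 spots with background above signal, while the others had 0 to 10, and its negative control threshold was 7.23 before normalisation, against 6.17 to 6.52. Of the neuronal list (such as miR-124 and miR-9), 11 of 14 probes were above background on all arrays, against 3 of 11 for muscle and liver and 2 of 14 for epithelium.

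The miR-34b/34c probes were the better-measured members, and the miR-449 probes lay at or near background. miR-34b-5p, miR-34b-3p, miR-34c and miR-34c* exceeded the negative controls on every array. On home cage array 1 miR-34c* did so narrowly, at 20.3 units of signal minus background, below the 21.1 of miR-449b there. miR-449b was above them on 5 arrays, fear conditioned arrays 2 and 4 and home cage arrays 1, 2 and 3. miR-449a was above them on fear conditioned array 4 alone and miR-449c on home cage array 3 alone, and miR-449a* was not well above background on any array.

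mmu-miR-34b-5p read 9.72, 10.28, 8.02 and 9.84 on fear conditioned arrays 1 to 4 and 7.53, 9.39, 10.02 and 9.83 on home cage arrays 1 to 4 (Hy3 log2 signal). In signal minus background, before any normalisation, this was 729, 1108, 265 and 1229 units on the fear conditioned arrays and 93.7, 547, 733 and 788 units on the home cage arrays. An array of each group, fear conditioned 3 and home cage 1, stood well below the other 6, and the groups overlapped. The gap between these low arrays and the lowest of the rest was 1.37 on the log2 scale.

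mmu-miR-34c, the neighbour of miR-34b, had the same profile, at 9.49, 9.96, 7.77 and 9.54 on the fear conditioned arrays and 7.25, 9.09, 9.69 and 9.37 on the home cage arrays (Hy3 log2 signal). The same arrays were low, with a gap of 1.32 to the rest, and fear conditioned array 2 was again the highest. The minor arm miR-34c* read 7.09, 7.31, 6.66 and 7.16 on the fear conditioned arrays and 6.49, 6.87, 7.21 and 7.06 on the home cage arrays. Its low arrays were the same, over a narrower range of 0.81 against 2.72 for miR-34c. On home cage array 1 it lay near background, which limits how low it could read.

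miR-34b-3p, the opposite arm of the miR-34b hairpin, read 8.14, 8.05, 7.65 and 8.09 on the fear conditioned arrays and 7.43, 7.78, 7.94 and 7.85 on the home cage arrays (Hy3 log2 signal). Home cage array 1 and fear conditioned array 3 were lowest here too. The range over the arrays was 0.71 for miR-34b-3p, against 2.75 for miR-34b-5p from the same precursor. The background offset of the normalisation compresses differences of dim probes, so the ranges of dim and bright probes are not on an equal footing. In the deposited ratio the ranges were 0.54 for miR-34b-3p and 2.80 for miR-34b-5p. In signal minus background, before normalisation, miR-34b-3p read 190 units on fear conditioned array 3. The other fear conditioned arrays read 186 to 282 units and the home cage arrays 83.5 to 154.

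**Figure D1:**
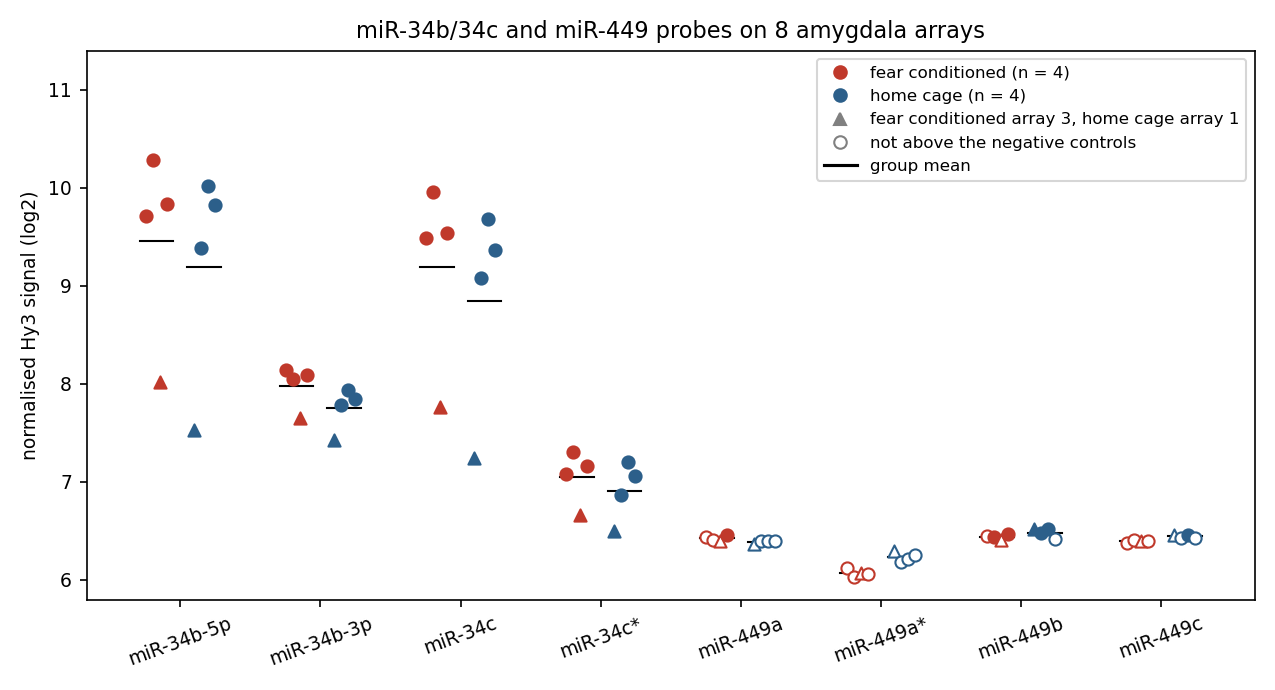
Normalised Hy3 signal (log2) of the 8 member probes on each array, with fear conditioned animals left of home cage animals (n = 4 each), black bars for group means, triangles for fear conditioned array 3 and home cage array 1, and open symbols for probes not above the negative controls. The triangles lie lowest for all 4 miR-34b/34c probes, and the miR-449 probes lie between 6.04 and 6.52.

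The miR-449 probes were flat by comparison. mmu-miR-449b read 6.45, 6.44, 6.41 and 6.47 on the fear conditioned arrays and 6.52, 6.48, 6.52 and 6.42 on the home cage arrays (Hy3 log2 signal), a range of 0.11. Fear conditioned array 3 was the lowest for it by a narrow margin, and home cage array 1 was level with the highest. mmu-miR-449a ranged over 0.090, mmu-miR-449a* over 0.26 and mmu-miR-449c over 0.085, none of which is read as a change because these probes lay at background on most arrays. A dip of miR-449 on the low arrays was not detectable at this signal.

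In the deposited ratios, from the authors' own processing, miR-34b-5p and miR-34c were low on the same arrays. miR-34b-5p was at 0.52, 0.85, -1.69 and 0.38 on the fear conditioned arrays and -1.96, -0.12, 0.48 and 0.32 on the home cage arrays (log2 ratio to the pool). miR-34c was at 0.53, 1.01, -1.70 and 0.38 on the fear conditioned arrays and -1.73, -0.19, 0.58 and 0.36 on the home cage arrays. Both miRNAs were thus far below the pool on fear conditioned array 3 and home cage array 1, and near or above it on the other 6.

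The minor arm miR-34c* was at 0.21, 0.70, -0.43 and 0.82 on the fear conditioned arrays and -0.37, -0.034, 0.46 and 0.35 on the home cage arrays (log2 ratio to the pool). miR-34b-3p was at 0.16, 0.29, -0.063 and 0.30 on the fear conditioned arrays and -0.25, -0.13, 0.12 and 0.14 on the home cage arrays. For miR-34b-3p the ratio on fear conditioned array 3 was above that on home cage array 2, so the low arrays did not stand together there. Across the 8 arrays the Hy3 signal changed by 0.93 log2 units per unit of ratio for miR-34b-5p by 0.92 for miR-34c, by 1.10 for miR-34b-3p and by 0.57 for miR-34c*.

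**Figure D2:**
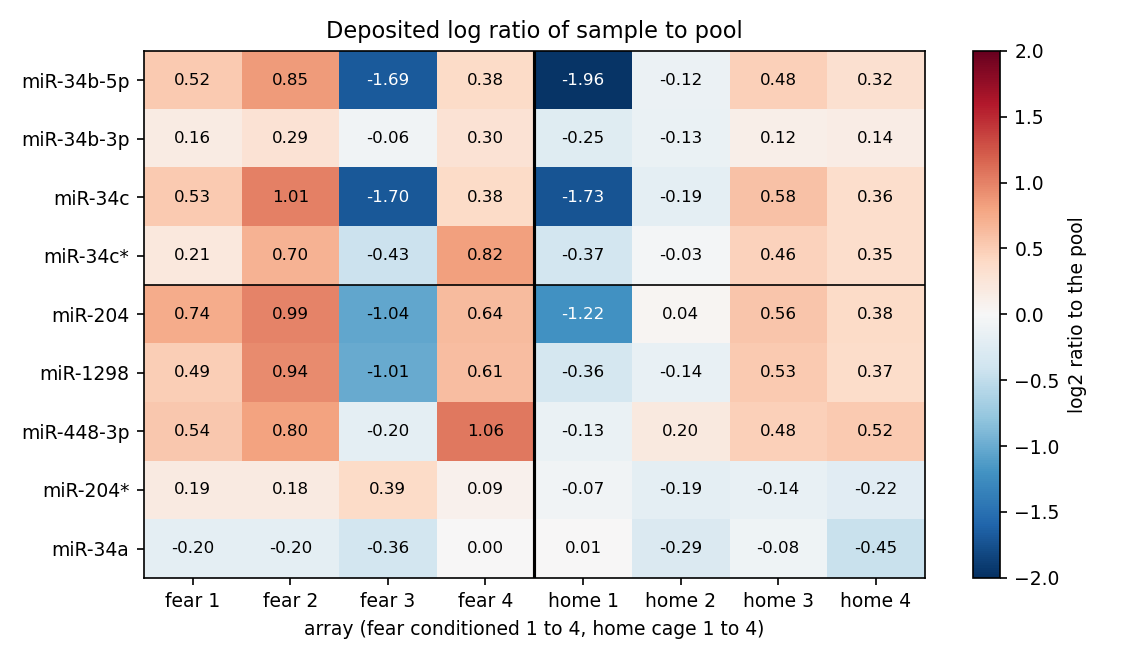
Deposited log2 ratio of sample to pool for the 4 miR-34b/34c probes (above the line) and for miR-204, miR-1298, miR-448-3p, miR-204* and miR-34a, by array, with fear conditioned arrays left of home cage arrays. Fear conditioned array 3 and home cage array 1 are blue for miR-34b-5p, miR-34c, miR-204 and miR-1298, and miR-204* is not.

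No member differed between fear conditioned and home cage animals by enough to pass the test in either readout. In the Hy3 signal 0 of 8 member probes passed limma's test at an adjusted p under 0.05, where 0.193% of all mouse probes did, and in the ratio 0 of 8 passed, where 0% of all did. At an unadjusted p under 0.05 the limma fit of the Hy3 signal gave 2 of 8 members, both at background (miR-449a* and miR-449c), against 14.1% of all probes, and that of the ratio gave 0 of 8, against 7.65%. Groups did not overlap for 3 of 8 members in Hy3, miR-449a, miR-449a* and miR-449c, all at background on 7 or 8 arrays, against 9.47% of all probes, and for 0 of 8 in the ratio, against 5.43%.

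miR-34b-5p averaged 9.46 ± 1.00 in fear conditioned and 9.19 ± 1.14 in home cage animals (Hy3 log2 signal, SD, n = 4 each), a difference of 0.27 (95% interval -1.26 to 1.80, limma adjusted p = 0.854). In the ratio the difference was 0.33 (95% interval -1.03 to 1.70, limma adjusted p = 0.896). miR-34c averaged 9.19 ± 0.97 in fear conditioned and 8.85 ± 1.10 in home cage animals, a difference of 0.34 (95% interval -1.15 to 1.83, limma adjusted p = 0.820). Intervals of this width do not show that the groups were alike.

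miR-34b-3p averaged 7.98 ± 0.22 in fear conditioned and 7.75 ± 0.22 in home cage animals, a difference of 0.23 (95% interval -0.092 to 0.56, limma adjusted p = 0.459). miR-34c* differed by 0.15 (95% interval -0.28 to 0.57, limma adjusted p = 0.722), and miR-449b by -0.040 (95% interval -0.11 to 0.025, limma adjusted p = 0.534). All 4 miR-34b/34c probes had positive differences in both readouts, with a median of 0.25 in Hy3 and 0.26 in the ratio. Over the 480 probes above background on all arrays the median difference was -0.028 in Hy3, where 39.6% were positive, and 0.041 in the ratio, where 68.5% were. These probes moved together across the arrays, so their signs are not independent.

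Without fear conditioned array 3 and home cage array 1, a choice made after their values were seen, the spread shrank and still 0 of 8 members passed in either readout. miR-34b-5p then averaged 9.95 ± 0.30 in fear conditioned and 9.75 ± 0.32 in home cage animals (SD, n = 3 each), a difference of 0.20 (limma adjusted p = 0.662). miR-34b-3p averaged 8.09 ± 0.045 in fear conditioned and 7.86 ± 0.078 in home cage animals, a difference of 0.24 (95% interval 0.12 to 0.35, limma adjusted p = 0.151). Its 3 fear conditioned arrays, from 8.05 to 8.14, lay above its 3 home cage arrays, from 7.78 to 7.94, but the difference did not pass the adjusted threshold. miR-204 separated too, with a difference of 0.52 (95% interval 0.13 to 0.91, limma adjusted p = 0.266). The share of all probes that separated on these arrays was not counted, so neither separation is read as a result about these miRNAs. Without home cage array 1 alone the miR-34b-5p difference in Hy3 was -0.28 and that of miR-34c -0.19. Without fear conditioned array 3 alone they were 0.75 and 0.82, so which low array was kept set the sign.

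**Figure D3:**
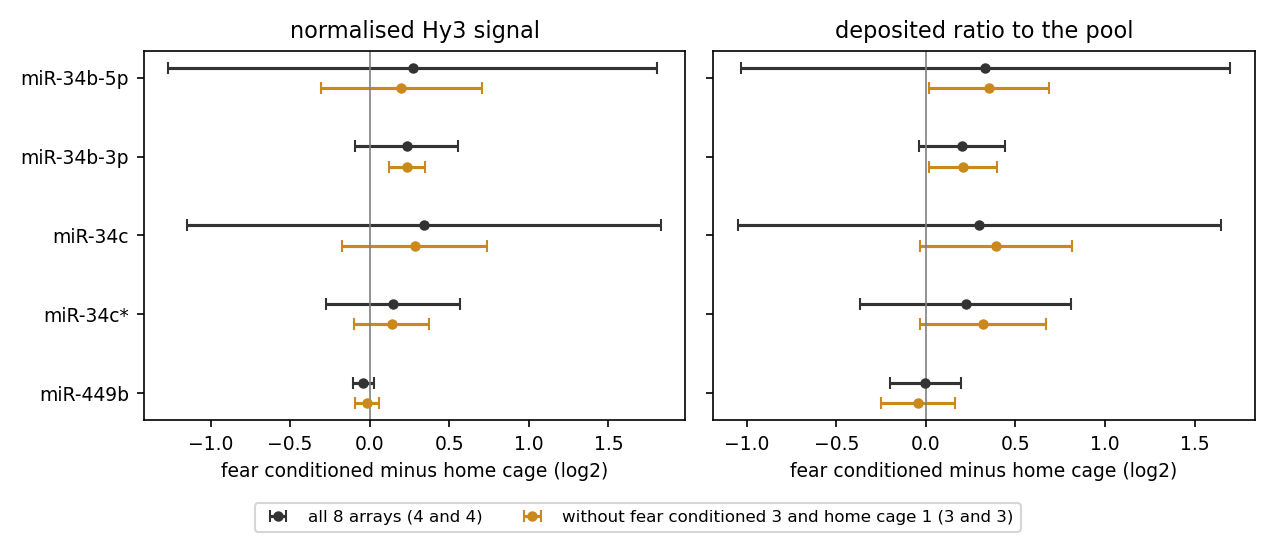
Difference between fear conditioned and home cage animals (log2, points) with 95% intervals from limma (bars) for the 5 members above background on at least 4 arrays, in Hy3 signal (left) and deposited ratio (right), with all 8 arrays and without fear conditioned array 3 and home cage array 1. With all arrays every interval spans 0, and the intervals of miR-34b-5p and miR-34c narrow most when the low arrays are left out.

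miR-34b-5p and miR-34c varied widely between arrays, as did miR-204, while the other members varied less. Among the 480 mouse probes above background on all arrays, miR-34b-5p had the largest SD over the 8 arrays in the Hy3 signal, 1.00, and miR-34c the next, 0.98, where the median probe had 0.10. In the ratio they were again first and second, with SDs of 1.07 and 1.05 against a median of 0.12. Within groups the SD of miR-34b-5p was 1.07 in Hy3, also the largest. miR-204 had an SD of 0.87 in Hy3, rank 3, and 0.83 in the ratio, rank 4. miR-34c* ranked 38 and miR-34b-3p 48 of 480 in Hy3, and 6 and 55 in the ratio.

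The pooled SD between the spots of a probe on an array was 0.028 for miR-34b-5p and 0.10 for miR-34c. It measures repeat spots only, and with 1 array for each animal, differences between animals, punches, labellings and arrays cannot be told apart. From low to high, miR-34b-5p ran home cage 1, fear conditioned 3, home cage 2, fear conditioned 1, home cage 4, fear conditioned 4, home cage 3 and fear conditioned 2. With median centring in place of quantile normalisation miR-34b-5p and miR-34c stayed first and second in SD, at 1.15 and 1.11, and with spike-in centring at 0.86 and 0.83. The ranks of the other arms depended on the scaling. miR-34b-3p ranked 79 and miR-34c* 200 of 480 with median centring. With spike-in centring they ranked 457 and 373, with SDs of 0.20 and 0.26 below the median of 0.31. Without the low arrays the SD of miR-34b-5p in Hy3 was 0.30, rank 11 of 480, against a median of 0.081.

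**Figure D4:**
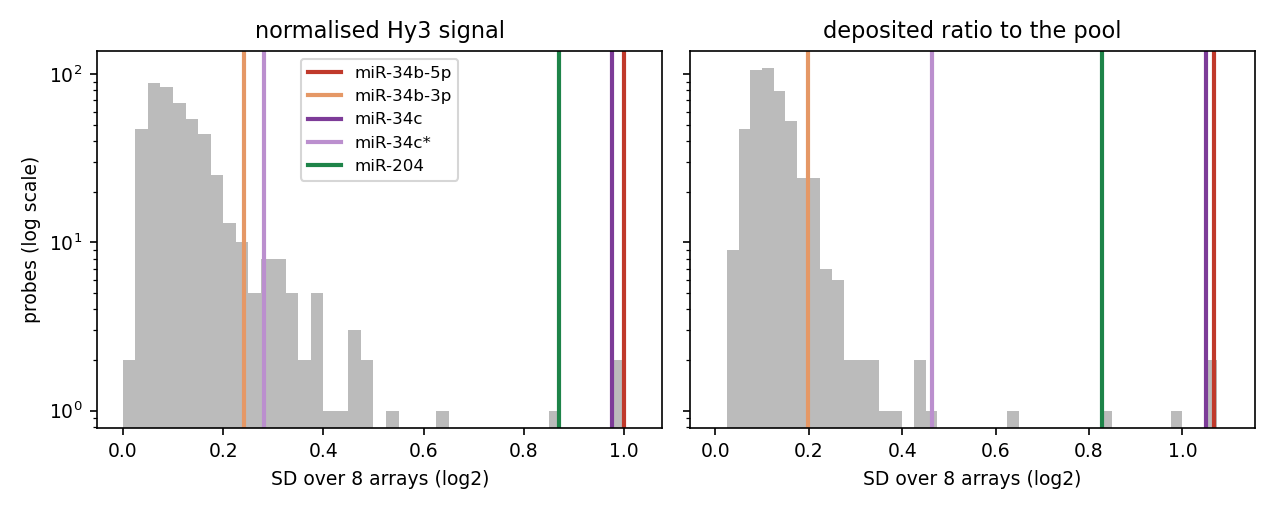
Histogram of the SD over 8 arrays (log2, horizontal) of the 480 mouse probes above background on all arrays, with the number of probes on a log scale (vertical), in Hy3 signal (left) and deposited ratio (right). Coloured lines mark the miR-34b/34c probes and miR-204, and miR-34b-5p and miR-34c lie at the right end of both panels.

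Over the 6 arrays other than fear conditioned 3 and home cage 1, among which no array stood apart, 3 of the 14 pairs tested passed in Hy3. In Hy3 miR-34b-5p and miR-34c had Pearson's r = 0.968 (exact permutation p = 0.00694, adjusted over 14 pairs 0.0324) and Spearman's rho = 0.943 (exact permutation p = 0.0167), and r = 0.720 without the 2 arrays farthest from the median. miR-34c and its minor arm miR-34c* had r = 0.981 (exact permutation p = 0.00278, adjusted 0.0324), rho = 1 (exact permutation p = 0.00278), and r = 0.938 without the farthest arrays. miR-34b-5p and miR-34c* had r = 0.967 (exact permutation p = 0.00556, adjusted 0.0324), rho = 0.943 (exact permutation p = 0.0167), and r = 0.785 without the farthest arrays. Whether the miR-34b-5p and miR-34c probes also bind each other's miRNA was not tested, so their readings may not be independent.

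The arms of miR-34b did not pass in Hy3, at r = 0.441 (exact permutation p = 0.389, adjusted 0.544) and rho = 0.257 (exact permutation p = 0.658). Their r was higher under other processing, 0.836 in the ratio (exact permutation p = 0.0667, adjusted 0.156), 0.759 with median centring (adjusted 0.105) and 0.761 with spike-in centring (adjusted 0.0506), none of which passed. In the ratio miR-34b-5p and miR-34c had r = 0.996 (exact permutation p = 0.00417, adjusted 0.0292), rho = 0.943 (exact permutation p = 0.0167) and r = 0.921 without the farthest arrays. There miR-34c and miR-34c* did not pass, with r = 0.677 (exact permutation p = 0.129, adjusted 0.181) and rho = 0.543 (exact permutation p = 0.297). miR-34a shares the seed of miR-34b-5p but not that of miR-34b-3p or miR-34c*, and is made from chromosome 4. It passed with none of the 4 members in Hy3, with r between 0.145 and 0.293 and a lowest adjusted permutation p of 0.757. Its r depended on the processing, from 0.267 to 0.587 in the ratio, 0.642 to 0.799 with median centring and 0.616 to 0.777 with spike-in centring, where the lowest adjusted permutation p was 0.276, 0.186 and 0.145 in that order. It read 8.0, 8.13, 7.94 and 8.45 on the fear conditioned arrays and 8.07, 8.15, 8.33 and 8.02 on the home cage arrays (Hy3 log2 signal). In the p53-linked list, which holds miR-34a and leaves out the members, 0 of 15 probes passed in either readout, with 8 higher in Hy3 and 11 in the ratio.

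Over all 8 arrays, the probe most like the miR-34b/34c profile was miR-204, an abundant miRNA of the choroid plexus and the retinal pigment epithelium, whose gene lies within Trpm3. Likeness was taken as Pearson's r over the 8 arrays to the members' mean centred level, among 476 other probes, and is a description, since all points share the low arrays. miR-204 had r = 0.987 in Hy3 and 0.994 in the ratio, and 0.907 and 0.948 over the 6 other arrays. It read 9.86, 10.03, 8.21 and 9.76 on the fear conditioned arrays and 7.58, 9.01, 9.59 and 9.50 on the home cage arrays (Hy3 log2 signal), low on the same arrays, as were the miR-34b/34c probes. Over the 6 arrays its ratio and that of miR-34b-5p had r = 0.969 (exact permutation p = 0.00417, adjusted 0.0292), rho = 0.943 (exact permutation p = 0.0167) and r = 0.755 without the 2 farthest arrays. In Hy3 the pair had r = 0.792 (exact permutation p = 0.0694, adjusted 0.139), rho = 0.600 (exact permutation p = 0.242), and r = -0.594 without the farthest arrays, so there the relation rested on those arrays.

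miR-1298 came second over 8 arrays in both readouts, with r = 0.958 in Hy3 and 0.936 in the ratio. Over the 6 other arrays its r was 0.920 in Hy3 and 0.999 in the ratio, above that of miR-204 in both. It read 7.52, 7.79, 6.62 and 7.68 on the fear conditioned arrays and 6.51, 6.98, 7.44 and 7.39 on the home cage arrays (Hy3 log2 signal). miR-448-3p was at rank 3 in Hy3 (r = 0.932, and 0.881 over 6 arrays) and rank 4 in the ratio (r = 0.918, and 0.775 over 6). miR-1264-5p was at rank 3 in the ratio (r = 0.936, and 0.971 over 6). In RefSeq the genes of miR-1298, miR-448 and miR-1264 all lie within Htr2c on chromosome X, the serotonin 2C receptor gene, which is strongly expressed in choroid plexus epithelium. Which cells of the punches these miRNAs came from was not tested. miR-448-3p read 6.81, 6.94, 6.47 and 6.82 on the fear conditioned arrays and 6.50, 6.66, 6.99 and 6.81 on the home cage arrays (Hy3 log2 signal), and both low arrays were again the lowest.

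The remaining probes named by likeness had a lower r without the low arrays. They were miR-195 (r = 0.892 over 8 arrays and 0.307 over 6) and miR-290-5p (0.857 and -0.769) in Hy3, and miR-804 (0.914 and 0.618) in the ratio. The minor arm miR-204* did not follow over 8 arrays, with r = -0.307 in Hy3 and -0.162 in the ratio, at rank 239 and 317, but its r over the 6 other arrays was positive, 0.522 in Hy3 and 0.654 in the ratio. It read 7.59, 7.52, 7.81 and 7.54 on the fear conditioned arrays and 7.44, 7.34, 7.36 and 7.35 on the home cage arrays (Hy3 log2 signal), higher on every fear conditioned array and highest on the low fear conditioned array 3. The difference was 0.24 (SE 0.065, limma adjusted p = 0.209) and 0.36 in the ratio (SE 0.071, limma adjusted p = 0.418), neither of which passed.

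**Figure D5:**
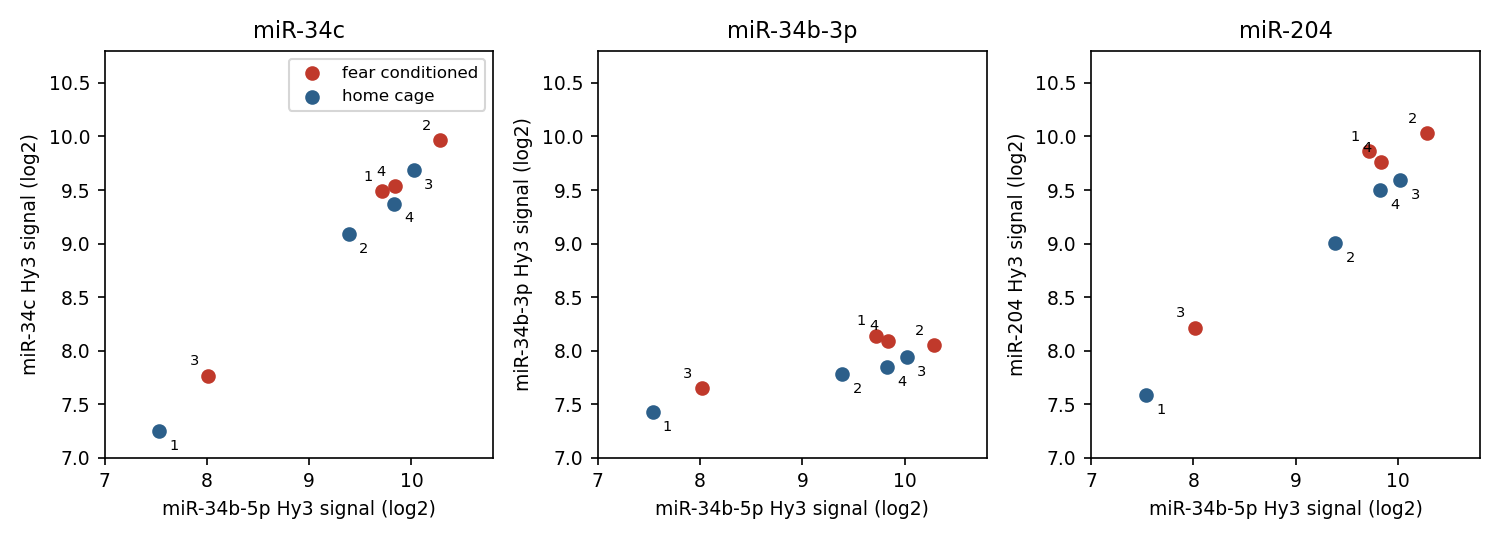
Normalised Hy3 signal (log2) of miR-34c, miR-34b-3p and miR-204 (vertical) against miR-34b-5p (horizontal) on each array, with fear conditioned arrays in red, home cage arrays in blue and the array number beside each point. Fear conditioned array 3 and home cage array 1 lie apart at the lower left of every panel.

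Of the choroid plexus list (miR-204, miR-211 and miR-448, every arm), 3 of 6 probes were above background on all arrays and 0 passed in either readout. miR-204 differed by 0.55 in Hy3 (95% interval -0.73 to 1.82, limma adjusted p = 0.670) and by 0.39 in the ratio (limma adjusted p = 0.851), and miR-448-3p by 0.019 in Hy3 (limma adjusted p = 0.946) and 0.28 in the ratio (limma adjusted p = 0.758). In Hy3, miR-211 differed by 0.037 (limma adjusted p = 0.617), miR-448-5p by 0.094 (limma adjusted p = 0.518) and miR-211*, not above background on any array, by -0.022. The summed Hy3 level of the list ranged from 861 to 1630 on fear conditioned arrays and from 712 to 1319 on home cage arrays. It was 861 on fear conditioned array 3 and 712 on home cage array 1, against 1033 to 1630 on the other 6. In the sum that dip came from miR-204, since the other 5 probes summed to 564 on fear conditioned array 3 and 520 on home cage array 1, within the 518 to 585 of the other 6. These 5 did not all stay level. miR-448-3p, a dim probe, was lowest on both low arrays, at 6.47 and 6.50 against at least 6.66. miR-204* was highest on fear conditioned array 3, at 7.81 against at most 7.59. In bulk tissue fewer cells of a type and less RNA per cell cannot be told apart, and the part of choroid plexus or ependymal tissue in the miR-34b/34c values was not tested.

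Of the other lists, only the red blood cell list was below the other 6 arrays on both in summed Hy3 level. The neuronal list summed to 39443 on fear conditioned array 3 and 39649 on home cage array 1, within the 33327 to 42037 of the other 6. The oligodendrocyte list summed to 2524 on fear conditioned array 3, within the 2251 to 3831 of the other 6, and to 1567 on home cage array 1, below them. The vessel list likewise was 1968 on fear conditioned array 3, within 1935 to 2352, and 1473 on home cage array 1. These sums are of Hy3 only, and the ratio did not follow for the probe of each list that fell furthest. On home cage array 1 miR-338-3p (oligodendrocyte) was at 8.82 in Hy3 but -0.34 in the ratio, within the -0.71 to 0.060 of the other arrays. There miR-126-3p (vessel) was at 9.11 in Hy3 but 0.11 in the ratio, within -0.016 to 0.59. The red blood cell list was at 911 on fear conditioned array 3 and 922 on home cage array 1, against 1093 to 1740 on the other 6. Its brightest probe, miR-451, was at 8.99 and 8.96 there (Hy3 log2 signal), against at least 9.39 elsewhere. In the ratio miR-451 was lowest on these arrays too, at -0.45 and -0.48 against at least -0.21. Not every probe of the list was low on both. On home cage array 1 miR-144, at 7.34, lay above home cage array 4, at 7.32, and miR-486, at 6.80, lay above its 6.74. The part of these differences in the miR-34b/34c values was not tested. In each of the lists for epithelium, microglia and leukocytes, and muscle and liver 0 probes passed in either readout, as in all lists named above.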

How the data were processed

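RNA (500 ng per animal) was labelled with Hy3 and the pool with Hy5, per the labels' protocols. The authors deposited scanner files of spot and background intensity in a single channel, taken as Hy3 because it lights the Hy3 landmark spots (medians 3581 to 4422, against 51.4 to 54.2 for empty spots), with spot flags. They also deposited log ratios, taken as log2 with sample over pool. How these ratios were normalised, and their log base, is not given in the sources used here. Ratio medians per array lay between -0.018 and 0.018, and pairwise correlations of columns between 0.268 and 0.807. The slope of Hy3 on ratio over 20 wide-ranging probes was 0.70. Intensities were corrected with normexp (offset 50) in limma 3.58.1 (R 4.3.3), controls and spots flagged for poor shape or background above signal were dropped, capture spots were quantile normalised and the spots of a probe averaged as log2. Groups were compared with limma (lmFit, eBayes, two-sided, Benjamini-Hochberg over 1034 probes in Hy3 and 1033 in the ratio), and the fit was tested on simulated data. Correlations used exact two-sided permutations.

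The members and lists were chosen with earlier results of these data known. Named probes were every member, miR-34a, the choroid plexus list and the 5 probes most like the members in each readout. Alternatives changed the offset, background, scaling, flags, spot summary, array weights, filter, replicate block and arrays. Each array was a separate slide. Figures were drawn with matplotlib 3.10.9.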

Additional observations from a re-analysis of the deposited data

Results flagged for a closer look

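Among the 4 fear conditioned arrays, miR-204 on array 3, at 8.21 in the Hy3 log2 signal, lay far below the others, with a gap to the nearest of 0.852 of the group's range, above the limit of Dixon's test for 4 samples. It was the only such case in 28 groups of 4 arrays, and chance gives about 1 in 20.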

How the results depend on the processing

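Of 140 recomputed differences of the 5 members above background on at least 4 arrays, 13 changed sign and none passed, with a lowest adjusted p of 0.151. In Hy3, array weights gave -0.12 for miR-34b-5p and -0.050 for miR-34c, and spike-in centring -0.022 for miR-34c*. Leaving out single arrays moved miR-34b-5p between -0.28 and 0.75 in Hy3 and -0.21 and 0.90 in the ratio, miR-34c between -0.19 and 0.82 in Hy3 and -0.20 and 0.88 in the ratio, and miR-449b between -0.060 and 0.064 in the ratio. With the median of spots 1 member, miR-449a*, passed, at background on every array. Over all mouse probes the count of 2 in Hy3 became 0 without background subtraction, with either centring, with the replicate block or without both low arrays, 1 with flagged spots kept or the stricter filter, 4 with the median of spots and 12 with array weights, and leaving out single arrays gave 0 to 2. Of 14 correlations tested over 6 arrays (6 between members, 4 with miR-204 and 4 with miR-34a), 3 passed, all between members, against 7 with median centring (3 between members and 4 with miR-204) and 8 with spike-in centring (5 and 3). Without both low arrays the SD over arrays was 0.30 for miR-34c, 0.14 for miR-34b-3p, 0.15 for miR-34c* and 0.36 for miR-204. The cause of the other shifts was not tested. The labels do not say whether the replicate numbers pair the animals, and the numbers were not used as pairs in the main fit. Deviations of same-numbered arrays from their group means correlated at -0.087, 0.031, -0.616 and 0.0046, which cannot settle it. Over the same 480 probes the highest r across the groups was 0.517, between the low arrays, fear conditioned 3 and home cage 1. The next was 0.508, between fear conditioned 2 and home cage 3. With the numbers as a replicate block 0 members passed in either readout. Dim signal limits what can be said of miR-449.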
